A study of Mus musculus with 21 samples.

Results

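The genes described here encode collagens, laminins and other structural proteins of the extracellular matrix, measured as messenger RNA in whole mouse testes. They are the rows whose symbol begins with the collagen pattern (Col, a type number, a and a chain number), or is a laminin chain, or is 1 of 10 further matrix genes (Fn1, Sparc, Dcn, Lum, Bgn, Nid1, Nid2, Hspg2, Fbn1 and Eln), and whose average across the 21 libraries was 0.5 TPM or more. TPM is a length-corrected share of a library's messenger RNA, scaled to a fixed total. Of 66 matching symbols 61 reached the threshold, among 21450 genes that did so and 55573 rows in all. They comprise 39 collagen chains, 11 laminin chains, the 10 named genes and 1 gene, Col4a3bp, that the pattern takes by its symbol alone and that encodes a ceramide transfer protein. The 5 rows left out were Col19a1 (0.369 TPM), Col24a1 (0.244 TPM), Col5a3 (0.222 TPM), Col9a2 (0.0524 TPM) and Col10a1 (0.00238 TPM). The lowest kept were Col11a2 (0.517 TPM) and Col13a1 (0.548 TPM), and 52 of the 61 had a mean of at least 1 TPM. The threshold is a mean over all groups, so a gene present in few groups can pass through those groups. Col6a6, Col11a1 and Col13a1 passed through the heated groups, with means under 0.5 TPM in both unheated groups. Col9a1 passed through the unheated groups, with means under 0.5 TPM in both heated groups. Their direction with heat is thus partly set by the rule, and they stay in the counts below.

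The series compared C57BL6 male mice lacking Mageb4, which belongs to the MAGE gene family, with wild-type mice, each without heat and 72 h after a heat shock. There were 5 heated knockout, 4 heated wild-type, 6 unheated knockout and 6 unheated wild-type testes, named biological replicates by the labels. All were whole testes, so each level is an average over germ cells, Sertoli cells, peritubular cells, vessels and interstitium. The knockout allele, the animals' age and how hot and how long the heat shock was were not given in the sources used here.

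Collagens are secreted chains that wind around each other into helical molecules. Fibrillar collagens build fibrils, fibril-associated collagens sit on their surface, and type IV collagen forms the sheet-like network of basement membranes. Laminins, each of an alpha, a beta and a gamma chain, form the other basement membrane network, and nidogens and perlecan join both. In the testis such a basement membrane surrounds every seminiferous tubule between the Sertoli cells inside and the contractile peritubular myoid cells outside, both of which are known to contribute to it. Small leucine-rich proteoglycans such as decorin and biglycan bind collagen fibrils, and SPARC is a secreted collagen-binding glycoprotein.

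Promoter windows of 300 bases, 250 before and 50 after the RefSeq gene start on GRCm38.p6, were held for 40 of the 61 genes (44 windows). Shown are 5 of them. Col4a1 and Col4a2 are neighbouring type IV genes read in opposite directions that moved together, Col6a4 and Col6a5 are neighbouring type VI genes that moved in opposite directions with heat, and Col20a1 moved in opposite directions in the knockout and wild type. Each is written 5′ to 3′ on the strand of the gene. The windows are chr8:11312777-11313076 (minus strand) for Col4a1, chr8:11312555-11312854 (plus strand) for Col4a2, chr9:106096642-106096941 (minus strand) for Col6a4, chr9:105960594-105960893 (minus strand) for Col6a5 and chr2:180986285-180986584 (plus strand) for Col20a1. Capitals mark CCAAT and the GC box GGGCGG, on either strand.
Col4a1: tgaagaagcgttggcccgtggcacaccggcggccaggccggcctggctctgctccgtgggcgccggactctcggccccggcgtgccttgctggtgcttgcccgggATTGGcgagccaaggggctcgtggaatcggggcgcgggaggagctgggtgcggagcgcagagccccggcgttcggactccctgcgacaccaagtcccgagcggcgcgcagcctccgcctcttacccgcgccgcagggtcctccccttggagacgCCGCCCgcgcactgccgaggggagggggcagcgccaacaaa
Col4a2: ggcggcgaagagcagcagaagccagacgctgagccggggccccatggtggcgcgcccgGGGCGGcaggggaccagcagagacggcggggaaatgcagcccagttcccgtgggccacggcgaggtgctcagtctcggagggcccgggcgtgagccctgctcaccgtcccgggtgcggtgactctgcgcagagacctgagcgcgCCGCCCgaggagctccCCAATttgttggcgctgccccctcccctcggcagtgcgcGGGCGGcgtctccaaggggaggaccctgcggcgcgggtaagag
Col6a4: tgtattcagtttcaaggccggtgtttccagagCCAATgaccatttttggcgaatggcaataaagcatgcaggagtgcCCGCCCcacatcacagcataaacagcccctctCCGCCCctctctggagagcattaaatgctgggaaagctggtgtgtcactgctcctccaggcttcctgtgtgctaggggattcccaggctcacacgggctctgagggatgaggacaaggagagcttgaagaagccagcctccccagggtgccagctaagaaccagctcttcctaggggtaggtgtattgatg
Col6a5: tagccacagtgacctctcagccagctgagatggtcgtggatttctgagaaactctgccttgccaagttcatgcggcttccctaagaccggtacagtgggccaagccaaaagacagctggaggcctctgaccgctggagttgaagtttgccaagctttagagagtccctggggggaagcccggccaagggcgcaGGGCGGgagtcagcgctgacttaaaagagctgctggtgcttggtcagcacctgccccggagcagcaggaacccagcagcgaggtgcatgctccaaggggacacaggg
Col20a1: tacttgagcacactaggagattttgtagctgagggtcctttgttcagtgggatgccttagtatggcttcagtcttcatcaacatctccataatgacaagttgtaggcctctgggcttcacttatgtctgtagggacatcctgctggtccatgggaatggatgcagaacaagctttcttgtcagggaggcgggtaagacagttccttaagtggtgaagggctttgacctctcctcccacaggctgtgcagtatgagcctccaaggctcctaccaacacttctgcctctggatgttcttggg
The Col4a1 and Col4a2 windows share 78 bases, which hold 1 GC box. The Col6a4 window holds 1 CCAAT and 2 GC boxes, the Col6a5 window 1 GC box, and the Col20a1 window neither. Over the 44 windows, CCAAT was found in 14, against 37.41% of all 32851 RefSeq windows, and the GC box in 28, against 35.66%. TATAAA was found in 4 windows (13.62% of all), the cyclic AMP element TGACGTCA in 0 (1.79% of all) and the heat shock element pair GAANNTTC in 2 (7.86% of all), each searched on both strands and 0 matches in the 44 windows overlapped a match of another motif. Of the 26 windows of genes that rose with heat in both genotypes 18 held a GC box, and of the 8 windows of genes that fell in both 3 did. A match is a run of letters in this window and not evidence of binding.

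Mageb4 itself had at most 0.15 TPM in every knockout library, against at least 1.53 TPM in every wild-type library, heated or not. In the libraries the germ cell and somatic markers moved with heat, and the germ cell lists did not move alike. Of 8 spermatocyte markers 6 fell with heat in each genotype, by the limma test described below. In the knockout 1 of them rose, and in wild type 2 rose. The 8 round spermatid markers summed to between 408 and 815 TPM in heated knockout, 50.4 and 175 in heated wild-type, 2245 and 2368 in unheated knockout and 2317 and 2449.6 in unheated wild-type testes. The 10 elongating spermatid markers summed to 75038 to 93586 TPM in heated knockout and 34249.5 to 46351 TPM in heated wild-type testes. Their unheated sums were 47305 to 54411.5 TPM in knockout and 45137 to 56214 TPM in wild-type testes. The 9 spermatogonial markers summed to 169 to 214 TPM in heated knockout and 220 to 267 TPM in heated wild-type testes. Without heat they summed to 92.1 to 136 TPM in knockout and 92.15 to 108 TPM in wild-type testes. The 16 Sertoli markers summed to between 7254 and 10562 TPM in heated knockout, 17545 and 22159 in heated wild-type, 2442 and 3269.7 in unheated knockout and 1927 and 2249.5 in unheated wild-type testes. Peritubular myoid markers summed to 792 to 975 TPM in heated knockout and 816 to 909 TPM in heated wild-type testes. Their unheated sums were 584 to 633 TPM in knockout and 560 to 603 TPM in wild-type testes. Between the heated genotypes 6 of the 8 peritubular genes were lower and 1 higher in the knockout, by the limma test described below (median log2 difference -0.43). Interstitial fibroblast markers summed to 151 to 201 TPM in heated knockout and 276 to 347 TPM in heated wild-type testes. Every gene of these lists had a mean of at least 0.5 TPM. Heated wild-type replicate 3 had a sum of 6 epididymal markers of 2266 TPM, while replicates 1, 2 and 4 lay between 0.09 and 0.82 TPM. Heated knockout replicates 1 and 5 had the lowest Sertoli sums of their group, 7254 and 7365 TPM, and the highest round spermatid sums, 578 and 815 TPM. In whole-tissue RNA, fewer cells of a type and less RNA per cell cannot be told apart.

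**Figure D1:**
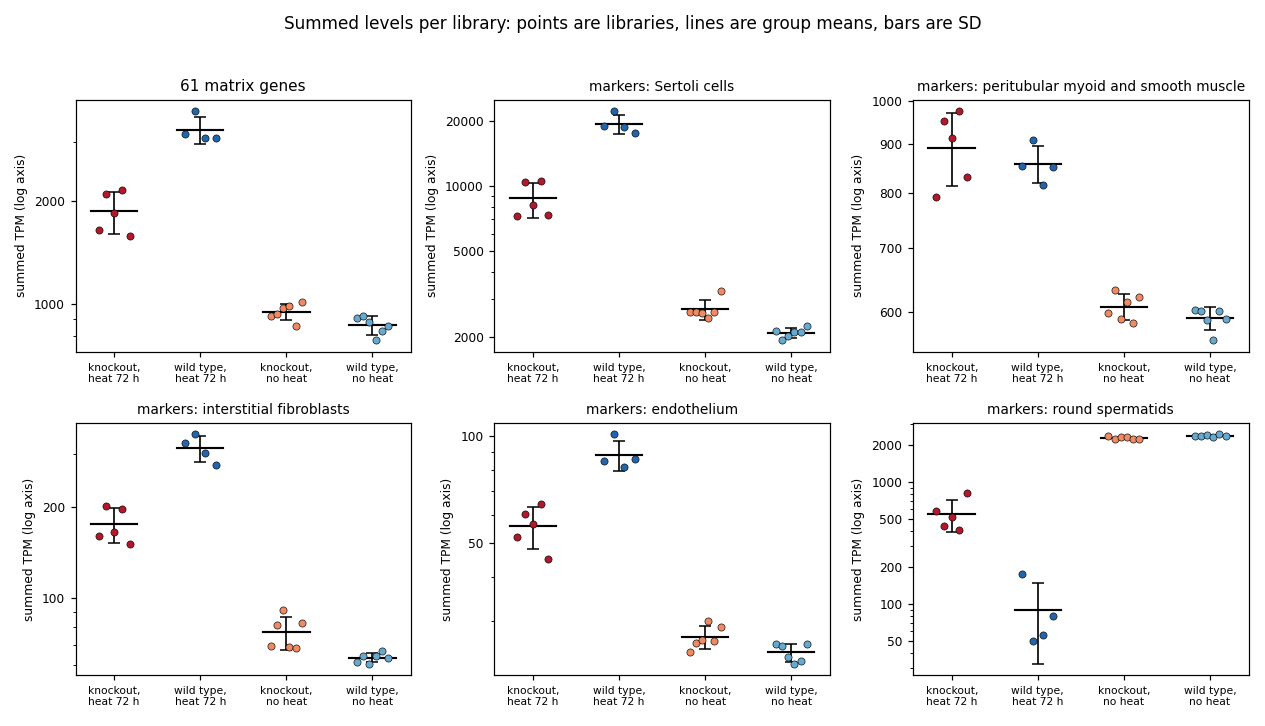
Summed TPM (log axis) per library of the 61 genes and of 5 cell type marker lists, for the heated knockout, heated wild-type, unheated knockout and unheated wild-type testes; points are libraries, lines group means and bars SD. The matrix sum is highest in heated wild type (3069 to 3689 TPM) and intermediate in the heated knockout (1582 to 2167 TPM), as is the Sertoli sum, while the round spermatid sum is lowest in heated wild type.

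After heat, most of the 61 genes were higher, and by more in wild type. Their summed level lay between 1582 and 2167 TPM in heated knockout and between 857.9 and 1007 TPM in unheated knockout testes. In wild type it lay between 3069 and 3689 TPM with heat and between 778 and 921 TPM without. Sparc alone made up 50.7% to 62.6% of that sum in the heated knockout and 68.2% to 71.3% in heated wild type, against 28.4% to 35.5% in the unheated knockout and 25.3% to 31.0% in unheated wild type. Without Sparc the sum lay between 718 and 839.5 TPM in the heated knockout and between 882 and 1124 TPM in heated wild type, against 577 to 702 TPM in the unheated knockout and 549.5 to 688 TPM in unheated wild type. With heat, more of the matrix sum thus came from Sparc than from the other 60 genes together.

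Heat was tested in each genotype on log2(TPM + 1) with limma, in 1 model of the 4 groups, and genes were called at a Benjamini-Hochberg adjusted p under 0.05 over all 21450 genes. Changes in log2 are on this scale, which understates those of low genes, and ± is the SE. In the knockout 39 of the 61 genes rose (63.9%), against 40.3% of all genes tested, and 13 fell (21.3%), against 40.2% of all genes. In wild type 38 rose (62.3%), against 46.4% of all genes tested, and 18 fell (29.5%), against 44% of all genes. The median change was 0.38 in the knockout and 0.73 in wild type, beside 0.012 and 0.057 over all genes tested. In both genotypes 36 rose and 12 fell, and 35 of the 36 had the smaller change in the knockout, as did all of the 12. Shares over all genes were not computed for these joint counts. The difference of heat effects was called positive for 31.6% and negative for 45.4% of all genes. Without their own shares over all genes, the joint counts cannot show whether the matrix genes differ from other genes. Col15a1, Col20a1 and Col23a1 rose in the knockout and fell in wild type. Col11a2, Col7a1, Lama5 and Nid2 passed the test in neither. Without heated wild-type replicate 3, the library with high epididymal markers, 38 rose and 18 fell in wild type. Without heated knockout replicates 1 and 5, a choice made after seeing the data, 35 rose and 15 fell in the knockout. Shares over all genes were not computed for the fits with libraries left out.

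**Figure D2:**
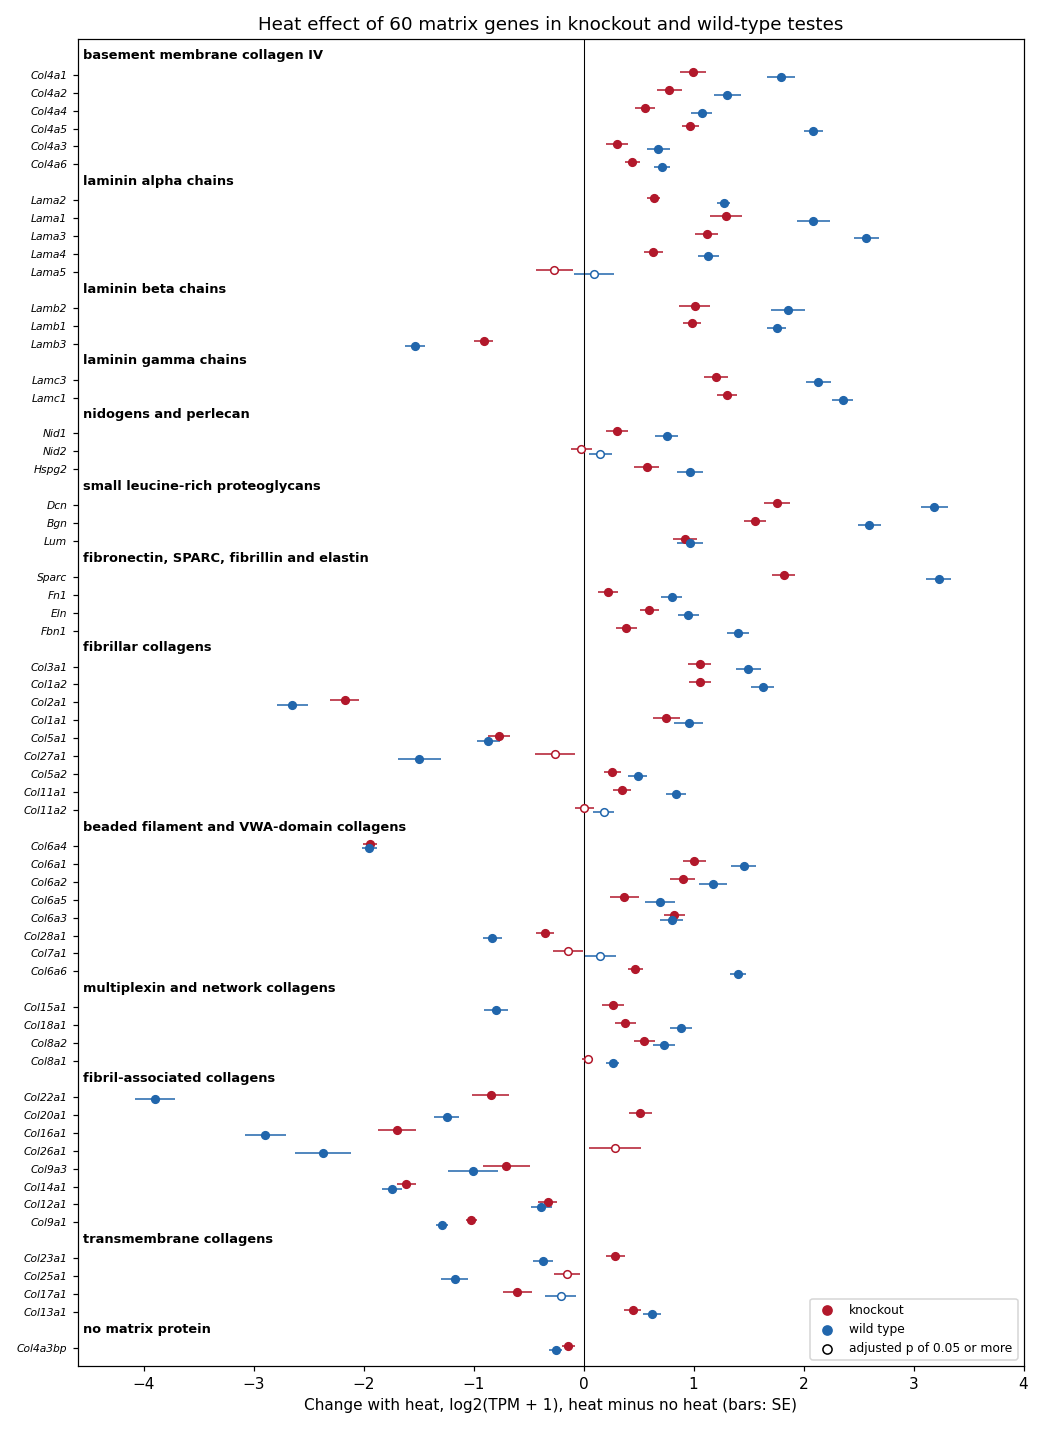
Change with heat of 60 of the 61 genes on the log2(TPM + 1) scale (x axis), by role and then by mean level, in knockout (red) and wild type (blue); bars are SE and open points have an adjusted p of 0.05 or more. The type IV collagen chains, small leucine-rich proteoglycans and SPARC lie right of 0 and farther in wild type, as do most laminin chains. Lamb3 lies left of 0 in both genotypes and Lama5 in the knockout. The fibril-associated collagens of wild type all lie left of 0.

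All 6 type IV collagen chains, which pair up to build basement membrane networks, rose with heat in both genotypes, and all 6 rose by less in the knockout by the test of the difference. Col4a1 stood at 14.8, 19.2, 16.3, 23.1 and 15.8 TPM in the 5 heated knockout testes and at 27.2, 33.9, 26.1 and 25 TPM in the 4 heated wild-type testes. Col4a1 without heat lay between 7.08 and 11.3 TPM (median 7.83) in knockout testes and between 6.41 and 8.82 TPM (median 7.01) in wild-type testes. Every heated library lay above every unheated one, and every heated wild-type library above every heated knockout library. The change was 0.99 ± 0.12 in the knockout (limma adjusted p = 1.56e-07) and 1.79 ± 0.13 in wild type (adjusted p = 1.47e-11), and the difference between them was -0.80 ± 0.18 (adjusted p = 0.000352). Col4a2, its head-to-head neighbour whose window is printed above, changed by 0.78 ± 0.12 in the knockout and 1.31 ± 0.12 in wild type. Col4a1 (chr8:11198423-11312826) and Col4a2 (chr8:11312805-11449287) overlap at their 5′ ends on opposite strands. The type IV chain with the largest wild-type change was Col4a5, a chain of the X chromosome mutated in Alport syndrome. Col4a5 stood at 4.81, 5.04, 4.37, 6.03 and 4.33 TPM in the 5 heated knockout testes and at 11.1, 12.7, 10.1 and 9.67 TPM in the 4 heated wild-type testes. Col4a5 without heat lay between 1.64 and 2.41 TPM (median 2.01) in knockout testes and between 1.63 and 1.87 TPM (median 1.82) in wild-type testes. It was 2.44-fold higher with heat in the knockout and 6.11-fold higher in wild type, by ratio of mean TPM. Col4a6, which lies head to head with Col4a5, changed by 0.44 in the knockout and 0.71 in wild type. Col4a3 and Col4a4, another head-to-head pair, changed by 0.30 and 0.56 in the knockout and by 0.68 and 1.07 in wild type.

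Of the 5 laminin alpha chains 4 rose in both genotypes, and Lama5, the alpha chain widespread in adult basement membranes, passed the test in neither. Lama2 stood at 9.36, 11.4, 10.7, 10.5 and 10.1 TPM in the 5 heated knockout testes and at 16.2, 15.7, 15.5 and 14.8 TPM in the 4 heated wild-type testes. Lama2 without heat lay between 6.03 and 6.69 TPM (median 6.41) in knockout testes and between 5.37 and 6.81 TPM (median 5.7) in wild-type testes. Lama2, the main alpha chain of muscle basement membrane, changed by 0.64 ± 0.058 in the knockout (limma adjusted p = 1.85e-09) and 1.27 ± 0.061 in wild type (adjusted p = 1.74e-14). Its heated and unheated libraries did not overlap, nor did the heated genotypes. Lama1 stood at 5.06, 9.85, 8.68, 9.4 and 7.45 TPM in the 5 heated knockout testes and at 15.4, 16.2, 12.9 and 12.5 TPM in the 4 heated wild-type testes. Lama1, the alpha chain of early embryonic basement membranes, was 3.05-fold higher with heat in the knockout and 5.44-fold higher in wild type. Among the laminins, Lama3 had the largest wild-type change. Lama3 stood at 1.73, 3.31, 2.06, 3.58 and 2.1 TPM in the 5 heated knockout testes and at 7.92, 8.36, 8.08 and 7.64 TPM in the 4 heated wild-type testes. Lama3 without heat lay between 0.44 and 0.77 TPM (median 0.6) in knockout testes and between 0.45 and 0.64 TPM (median 0.485) in wild-type testes. The change was 1.12 ± 0.10 in the knockout and 2.57 ± 0.11 in wild type, and the difference was -1.45 ± 0.15 (limma adjusted p = 5.48e-08). Lama4, a chain of vessel walls, changed by 0.63 in the knockout and 1.13 in wild type.

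Lamb1 and Lamb2, the beta chains found in most basement membranes, rose in both genotypes, and Lamb3 fell in both. Lamb2 stood at 27.2, 38.9, 34, 35.7 and 28.2 TPM in the 5 heated knockout testes and at 56, 49.2, 34.3 and 40.8 TPM in the 4 heated wild-type testes. Lamb2 without heat lay between 10.2 and 18.7 TPM (median 16.4) in knockout testes and between 10 and 15.2 TPM (median 11.1) in wild-type testes. Heated libraries lay above unheated ones in each genotype, while the heated genotypes overlapped. Lamb1 changed by 0.98 ± 0.081 in the knockout and 1.76 ± 0.086 in wild type. Lamb3 stood at 0.7, 0.37, 0.78, 0.66 and 0.89 TPM in the 5 heated knockout testes and at 0.27, 0.09, 0.26 and 0.08 TPM in the 4 heated wild-type testes. Lamb3 without heat lay between 1.86 and 2.61 TPM (median 2.08) in knockout testes and between 1.99 and 2.81 TPM (median 2.41) in wild-type testes. Lamb3 was 3.16-fold lower with heat in the knockout and 13.7-fold lower in wild type, by ratio of mean TPM. Its gene model on chromosome 1 overlaps Hsd11b1 and G0s2 on the opposite strand, with mean levels of 1.51 and 3.46 TPM, and the counting strand was not given in the sources used here. On the same strand the Lamb3 model overlaps 4930570N18Rik, with a mean of 2.25 TPM, beside 1.49 TPM for Lamb3 itself. Lamc1, the gamma chain of most laminins, rose in both genotypes. Lamc1 stood at 5.78, 8.65, 7.86, 8.68 and 6.38 TPM in the 5 heated knockout testes and at 15.4, 17.4, 13.3 and 14.6 TPM in the 4 heated wild-type testes. Lamc1 without heat lay between 2.11 and 2.72 TPM (median 2.42) in knockout testes and between 1.94 and 2.46 TPM (median 2.09) in wild-type testes. The change was 1.30 ± 0.089 in the knockout (limma adjusted p = 2.35e-11) and 2.36 ± 0.095 in wild type (adjusted p = 1.09e-15). Lamc3 changed by 1.2 ± 0.11 in the knockout and 2.13 ± 0.11 in wild type. Lama3, Lamb3 and Lamc3 encode the chains of the laminin described in rat at the junction of Sertoli cells with elongated spermatids, and here Lama3 and Lamc3 were higher and Lamb3 lower with heat.

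Nid1, a nidogen that links laminin to type IV collagen, and Hspg2, which encodes the heparan sulphate proteoglycan perlecan, rose in both genotypes. Nid1 stood at 12.3, 11.1, 9.62, 13.4 and 16.4 TPM in the 5 heated knockout testes and at 17.9, 15.7, 14.4 and 16 TPM in the 4 heated wild-type testes. Nid1 without heat lay between 8.78 and 10.9 TPM (median 10.2) in knockout testes and between 7.65 and 10.3 TPM (median 9.25) in wild-type testes. Nid1 changed by 0.30 ± 0.10 in the knockout (limma adjusted p = 0.01), where heated and unheated libraries overlapped, and by 0.75 ± 0.11 in wild type. Hspg2 changed by 0.57 in the knockout and 0.97 in wild type. Nid2 changed by -0.02 (adjusted p = 0.857) in the knockout and 0.15 in wild type (adjusted p = 0.176), but it overlaps Rtraf on the opposite strand, a gene with a mean of 101 TPM.

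SPARC, a collagen-binding glycoprotein, and the proteoglycans decorin and biglycan had the largest rises on the log2(TPM + 1) scale, while by ratio of mean TPM the less abundant Lama3, at 15.5-fold, and Col6a6, at 12.8-fold, exceeded them in wild type. Of these, Col6a6 passed the threshold for inclusion only through the heated groups. Sparc stood at 832, 1269.5, 1072, 1357 and 864 TPM in the 5 heated knockout testes and at 2160.1, 2565, 2189.8 and 2187 TPM in the 4 heated wild-type testes. Sparc without heat lay between 279 and 357 TPM (median 292) in knockout testes and between 229 and 266 TPM (median 235) in wild-type testes. Every heated library lay above every unheated one, the heated genotypes did not overlap, and heated knockout replicates 1 and 5 were the lowest of the heated libraries. Sparc (chr11:55394500-55423183) was 3.59-fold higher with heat in the knockout and 9.4-fold higher in wild type, with changes of 1.82 ± 0.10 in the knockout (limma adjusted p = 1.72e-12) and 3.23 ± 0.11 in wild type (adjusted p = 1.34e-16). Dcn stood at 166, 196, 134, 168 and 122 TPM in the 5 heated knockout testes and at 317, 434, 329 and 298 TPM in the 4 heated wild-type testes. Dcn without heat lay between 39.8 and 50.7 TPM (median 47) in knockout testes and between 31.8 and 43.5 TPM (median 35.5) in wild-type testes. Dcn (chr10:97479609-97518143) encodes decorin and was 3.47-fold higher with heat in the knockout and 9.38-fold higher in wild type. Bgn stood at 80.8, 84.9, 78.6, 89.3 and 64.2 TPM in the 5 heated knockout testes and at 135, 165, 122 and 129.6 TPM in the 4 heated wild-type testes. Bgn without heat lay between 22.9 and 32.1 TPM (median 25.1) in knockout testes and between 19.3 and 25.2 TPM (median 21.9) in wild-type testes. Bgn encodes biglycan, the close relative of decorin, and was 3.01-fold higher with heat in the knockout and 6.29-fold higher in wild type. For Dcn and Bgn the heated genotypes again did not overlap. Lum, which encodes lumican, changed by 0.92 ± 0.11 in the knockout and 0.97 ± 0.12 in wild type, and the difference between these was -0.049 ± 0.16 (adjusted p = 0.789).

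The other structural glycoproteins rose by less than Sparc. Fbn1 encodes fibrillin, the protein of microfibrils, and changed by 0.39 ± 0.093 in the knockout and 1.41 ± 0.099 in wild type. Eln, the gene of elastin, changed by 0.60 in the knockout and 0.95 in wild type. Fn1 stood at 4.76, 6.86, 6.87, 8.02 and 7.99 TPM in the 5 heated knockout testes and at 11.9, 11, 10.6 and 10.3 TPM in the 4 heated wild-type testes. Fn1 without heat lay between 5.13 and 6.12 TPM (median 5.7) in knockout testes and between 5.33 and 6.84 TPM (median 5.75) in wild-type testes. Fn1, which encodes the cell-adhesive fibronectin, changed by 0.22 ± 0.091 in the knockout (limma adjusted p = 0.0297), with overlapping libraries, and 0.80 ± 0.097 in wild type. The knockout call of Fn1 was lost in 9 of 22 alternatives.

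**Figure D3:**
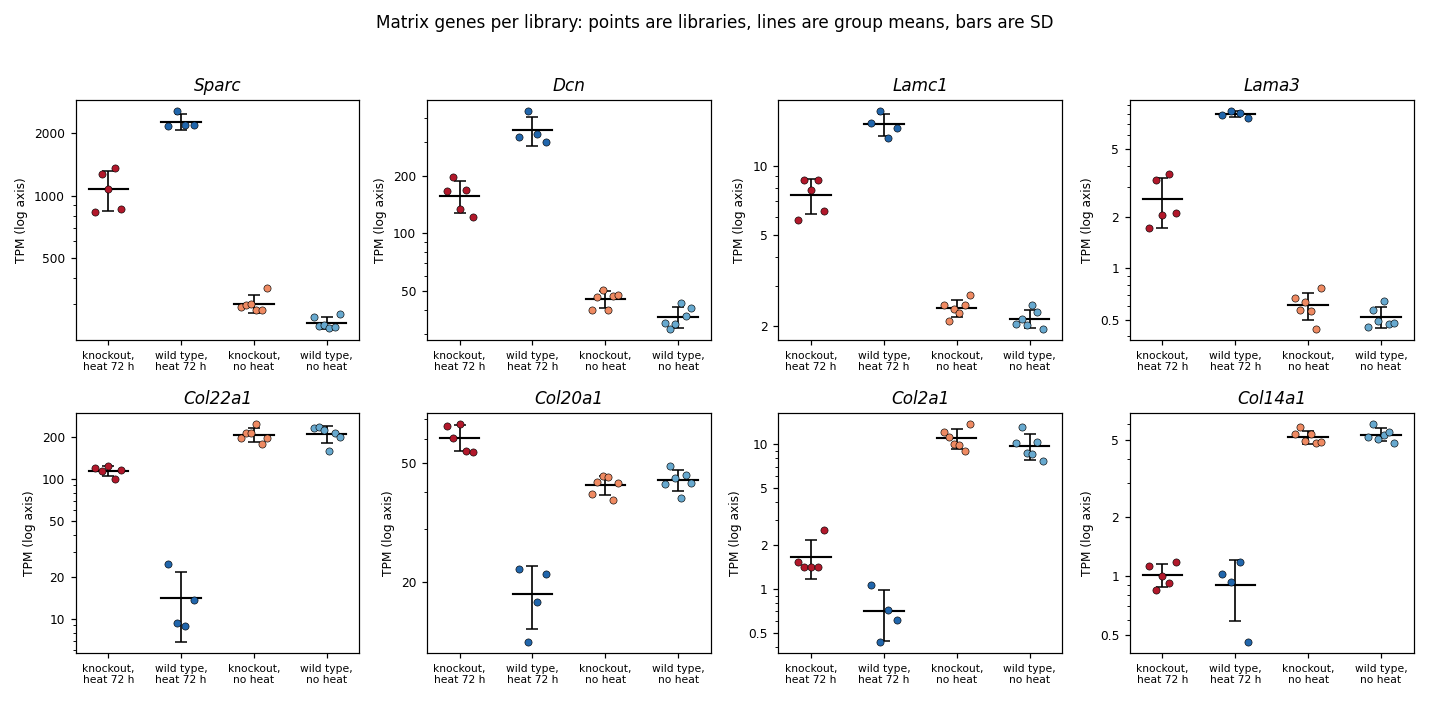
TPM (log axes) of 8 genes in each library of the heated knockout, heated wild-type, unheated knockout and unheated wild-type testes; points are libraries, lines group means and bars SD. Sparc, Dcn, Lamc1 and Lama3 are highest in heated wild type, Col22a1, Col20a1 and Col2a1 are lowest there, and Col14a1 is low in both heated groups.

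Fibrillar collagens moved in both directions. The chains of the common interstitial collagens, Col1a1, Col1a2 and Col3a1, rose in both genotypes. Col3a1 stood at 28.5, 22.9, 22.2, 24.5 and 17.4 TPM in the 5 heated knockout testes and at 29.1, 35.4, 23 and 24.7 TPM in the 4 heated wild-type testes. Col3a1 without heat lay between 9.71 and 11.2 TPM (median 10.5) in knockout testes and between 8.04 and 10.5 TPM (median 9.26) in wild-type testes. Col3a1 changed by 1.05 ± 0.11 in the knockout and 1.5 ± 0.11 in wild type, with no overlap of heated and unheated libraries. Col1a2 stood at 21.4, 20.7, 20, 21.9 and 16 TPM in the 5 heated knockout testes and at 29.8, 32, 22.9 and 23.7 TPM in the 4 heated wild-type testes. Col1a2 changed by 1.06 ± 0.098 in the knockout and 1.63 ± 0.10 in wild type, and its heated genotypes did not overlap. Col2a1, the main collagen of cartilage, fell. Col2a1 stood at 1.54, 1.41, 1.42, 1.42 and 2.55 TPM in the 5 heated knockout testes and at 1.07, 0.43, 0.72 and 0.61 TPM in the 4 heated wild-type testes. Col2a1 without heat lay between 8.93 and 13.7 TPM (median 10.7) in knockout testes and between 7.67 and 13.2 TPM (median 9.41) in wild-type testes. It was 6.59-fold lower with heat in the knockout and 13.8-fold lower in wild type, and the heated genotypes did not overlap. Replicate 5 was the highest of the heated knockout. Col5a1, a minor chain that nucleates fibrils, changed by -0.77 ± 0.099 in the knockout and -0.87 ± 0.11 in wild type), while Col5a2 changed by 0.26 in the knockout and 0.49 in wild type. Col11a1, a minor fibrillar chain of cartilage, changed by 0.35 in the knockout (limma adjusted p = 0.000895) and 0.84 in wild type (adjusted p = 1.85e-08), and Col1a1 by 0.75 in the knockout and 0.96 in wild type. Col27a1 changed by -0.26 ± 0.18 in the knockout (limma adjusted p = 0.194) and -1.49 ± 0.20 in wild type (adjusted p = 2.96e-07), with a difference of 1.23 ± 0.27 (adjusted p = 0.000314).

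Type VI collagen forms beaded filaments near cell surfaces, and its chains split by gene. Col6a1, Col6a2 and Col6a3, the chains of the common form, rose in both genotypes. Col6a3 changed by 0.83 ± 0.097 in the knockout and 0.80 ± 0.10 in wild type, Col6a2 by 0.90 ± 0.12 in the knockout and 1.18 ± 0.12 in wild type, and Col6a1 by 1.01 ± 0.11 in the knockout and 1.46 ± 0.11 in wild type. The other 3 genes of the family, Col6a4, Col6a5 and Col6a6, stand side by side on the minus strand of chromosome 9, at chr9:105989454-106096783, chr9:105856078-105960643 and chr9:105687809-105828160. Col6a4 stood at 4.27, 4.79, 4.37, 3.56 and 4.37 TPM in the 5 heated knockout testes and at 4.67, 4.58, 4.1 and 4.11 TPM in the 4 heated wild-type testes. Col6a4 without heat lay between 16.9 and 21.4 TPM (median 19.4) in knockout testes and between 18.4 and 21.1 TPM (median 19.4) in wild-type testes. Col6a4 was low in every heated library of both genotypes and high in every unheated one. It was 4.51-fold lower with heat in the knockout and 4.52-fold lower in wild type, and the difference of the log2 changes was 0.007 ± 0.095 (limma adjusted p = 0.949). Col6a6 stood at 0.56, 0.78, 0.58, 1.01 and 0.4 TPM in the 5 heated knockout testes and at 2.13, 2.13, 1.99 and 2.04 TPM in the 4 heated wild-type testes. Col6a6 without heat lay between 0.18 and 0.22 TPM (median 0.195) in knockout testes and between 0.11 and 0.19 TPM (median 0.17) in wild-type testes. Col6a6 was 3.42-fold higher with heat in the knockout and 12.8-fold higher in wild type, and the heated genotypes did not overlap. It passed the threshold of 0.5 TPM only through the heated groups, so its higher heated level is partly built into its selection. Col6a5, between the other two on the chromosome, changed by 0.37 ± 0.13 in the knockout and 0.69 ± 0.14 in wild type. Col28a1, which shares the von Willebrand domains of type VI collagen, changed by -0.35 in the knockout and -0.83 in wild type, falling in both.

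Fibril-associated collagens went the other way from most of the 61 genes. All 8 fell with heat in wild type, while in the knockout 6 fell, Col20a1 rose and Col26a1 did not pass the test. Col22a1, a collagen of tissue junctions such as those of muscle with tendon, was the second most abundant of the 61 genes by its mean (9.45% of the sum of means). Col22a1 stood at 120.2, 114, 123, 99.6 and 116 TPM in the 5 heated knockout testes and at 24.7, 9.37, 8.92 and 13.7 TPM in the 4 heated wild-type testes. Col22a1 without heat lay between 179 and 247 TPM (median 204) in knockout testes and between 159.8 and 237 TPM (median 218) in wild-type testes. The heated knockout lay below both unheated groups and above heated wild type, with no overlap. Col22a1 (chr15:71795795-72034227) was 1.81-fold lower with heat in the knockout (-0.85 ± 0.17, limma adjusted p = 0.000126) and 14.8-fold lower in wild type (-3.90 ± 0.18, adjusted p = 1.13e-14). The difference between the log2 changes was 3.05 ± 0.25 (adjusted p = 2.41e-09).

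Col20a1 (chr2:180986535-181018363), whose promoter window is printed above, moved in opposite directions. Col20a1 stood at 66.3, 60.8, 67.5, 54.8 and 54.6 TPM in the 5 heated knockout testes and at 22.2, 12.6, 17.1 and 21.2 TPM in the 4 heated wild-type testes. Col20a1 without heat lay between 37.5 and 45.2 TPM (median 43.1) in knockout testes and between 38.2 and 48.9 TPM (median 43.8) in wild-type testes. All heated knockout libraries lay above, and all heated wild-type libraries below, all unheated ones. The change was 0.51 ± 0.11 in the knockout (limma adjusted p = 0.000152) and -1.24 ± 0.11 in wild type (adjusted p = 8.82e-10), and the difference was 1.76 ± 0.15 (adjusted p = 6.15e-09). Col26a1, a collagen with an EMI domain placed here with this class, fell in wild type. Col26a1 stood at 11.8, 8.58, 11, 7.95 and 8.33 TPM in the 5 heated knockout testes and at 2.19, 0.1, 1.39 and 0.38 TPM in the 4 heated wild-type testes. Col26a1 without heat lay between 5.71 and 11.7 TPM (median 7.51) in knockout testes and between 5.79 and 12.4 TPM (median 9.35) in wild-type testes. It changed by 0.28 ± 0.24 in the knockout (adjusted p = 0.281) and -2.37 ± 0.26 in wild type. Col16a1 stood at 16.3, 12, 11, 9.15 and 16.2 TPM in the 5 heated knockout testes and at 5.37, 2.85, 5.12 and 5.87 TPM in the 4 heated wild-type testes. Col16a1 without heat lay between 37 and 54.8 TPM (median 42.8) in knockout testes and between 31.8 and 51.6 TPM (median 42.7) in wild-type testes. Col16a1 fell in both, 3.37-fold in the knockout and 8.75-fold in wild type, with no overlap between any heated and unheated library.

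Col9a1 and Col9a3, chains of the type IX collagen of cartilage, fell in both genotypes. Col9a1 stood at 0.46, 0.45, 0.47, 0.36 and 0.57 TPM in the 5 heated knockout testes and at 0.12, 0.09, 0.06 and 0.11 TPM in the 4 heated wild-type testes. Col9a1 without heat lay between 1.86 and 2.13 TPM (median 1.93) in knockout testes and between 1.55 and 1.81 TPM (median 1.69) in wild-type testes. Col9a1 was 4.26-fold lower with heat in the knockout and 17.6-fold lower in wild type, and no group overlapped the one it was compared with. Col9a3 changed by -0.70 in the knockout and -1.01 in wild type, but it overlaps Tcfl5 on the opposite strand, a gene with a mean of 171 TPM. Col14a1, a collagen of dense connective tissue, fell in both genotypes. Col14a1 stood at 1.13, 0.85, 1, 0.92 and 1.18 TPM in the 5 heated knockout testes and at 1.03, 0.93, 1.18 and 0.46 TPM in the 4 heated wild-type testes. Col14a1 without heat lay between 4.78 and 5.8 TPM (median 5.12) in knockout testes and between 4.83 and 6 TPM (median 5.22) in wild-type testes. Its changes were -1.61 ± 0.085 in the knockout and -1.74 ± 0.09 in wild type, and their difference was 0.13 ± 0.12 (limma adjusted p = 0.346). Col12a1, a relative of Col14a1, changed by -0.33 in the knockout and -0.38 in wild type, but it overlaps 4930562D21Rik on the opposite strand, with a mean of 9.61 TPM.

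The multiplexins Col15a1 and Col18a1 are collagens at the outer face of basement membranes, and Col18a1 yields the fragment endostatin. Col15a1 stood at 16.9, 15.1, 15.7, 12.8 and 14.8 TPM in the 5 heated knockout testes and at 8.16, 7.98, 6.09 and 6.32 TPM in the 4 heated wild-type testes. Col15a1 without heat lay between 10.2 and 14.4 TPM (median 12.4) in knockout testes and between 11 and 16.1 TPM (median 12.8) in wild-type testes. Heated wild type lay below all other groups. Col15a1 changed by 0.27 ± 0.10 in the knockout (limma adjusted p = 0.0198), where heated and unheated libraries overlapped, and by -0.80 ± 0.11 in wild type (adjusted p = 5.2e-07). The knockout call was lost in 5 of 22 alternatives. Col18a1 changed by 0.38 ± 0.094 in the knockout and 0.88 ± 0.10 in wild type. Col8a1 and Col8a2, the short network collagens made by endothelium, changed by 0.035 (adjusted p = 0.547) and 0.55 in the knockout and by 0.26 and 0.73 in wild type.

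Transmembrane collagens, which stay anchored in the cell membrane, were low and moved apart. Col23a1 stood at 3.37, 3.05, 3.36, 2.97 and 3 TPM in the 5 heated knockout testes and at 1.73, 1.48, 1.63 and 1.7 TPM in the 4 heated wild-type testes. Col23a1 without heat lay between 1.98 and 2.89 TPM (median 2.48) in knockout testes and between 2.07 and 3.38 TPM (median 2.28) in wild-type testes. Col23a1 changed by 0.29 ± 0.087 in the knockout and -0.37 ± 0.092 in wild type; heated and unheated libraries did not overlap in either genotype. Col25a1, a collagen of neurons, changed by -0.15 ± 0.12 in the knockout (limma adjusted p = 0.234) and -1.17 ± 0.12 in wild type. Col17a1, the hemidesmosomal collagen, changed by -0.60 in the knockout and -0.21 in wild type (adjusted p = 0.165). Col13a1, found at neuromuscular junctions, changed by 0.45 in the knockout and 0.62 in wild type. Col7a1, the collagen of the anchoring fibrils of skin and not a transmembrane one, passed neither heat test, at -0.14 in the knockout and 0.15 in wild type. Col4a3bp, the gene taken by its symbol alone, averaged 43.2 ± 1.99 TPM in heated knockout and 42.2 ± 1.88 TPM in heated wild-type testes (SD, n = 5 and 4) and changed by -0.14 in the knockout and -0.25 in wild type. The sign of its knockout change was reversed under quantile normalization.

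**Figure D4:**
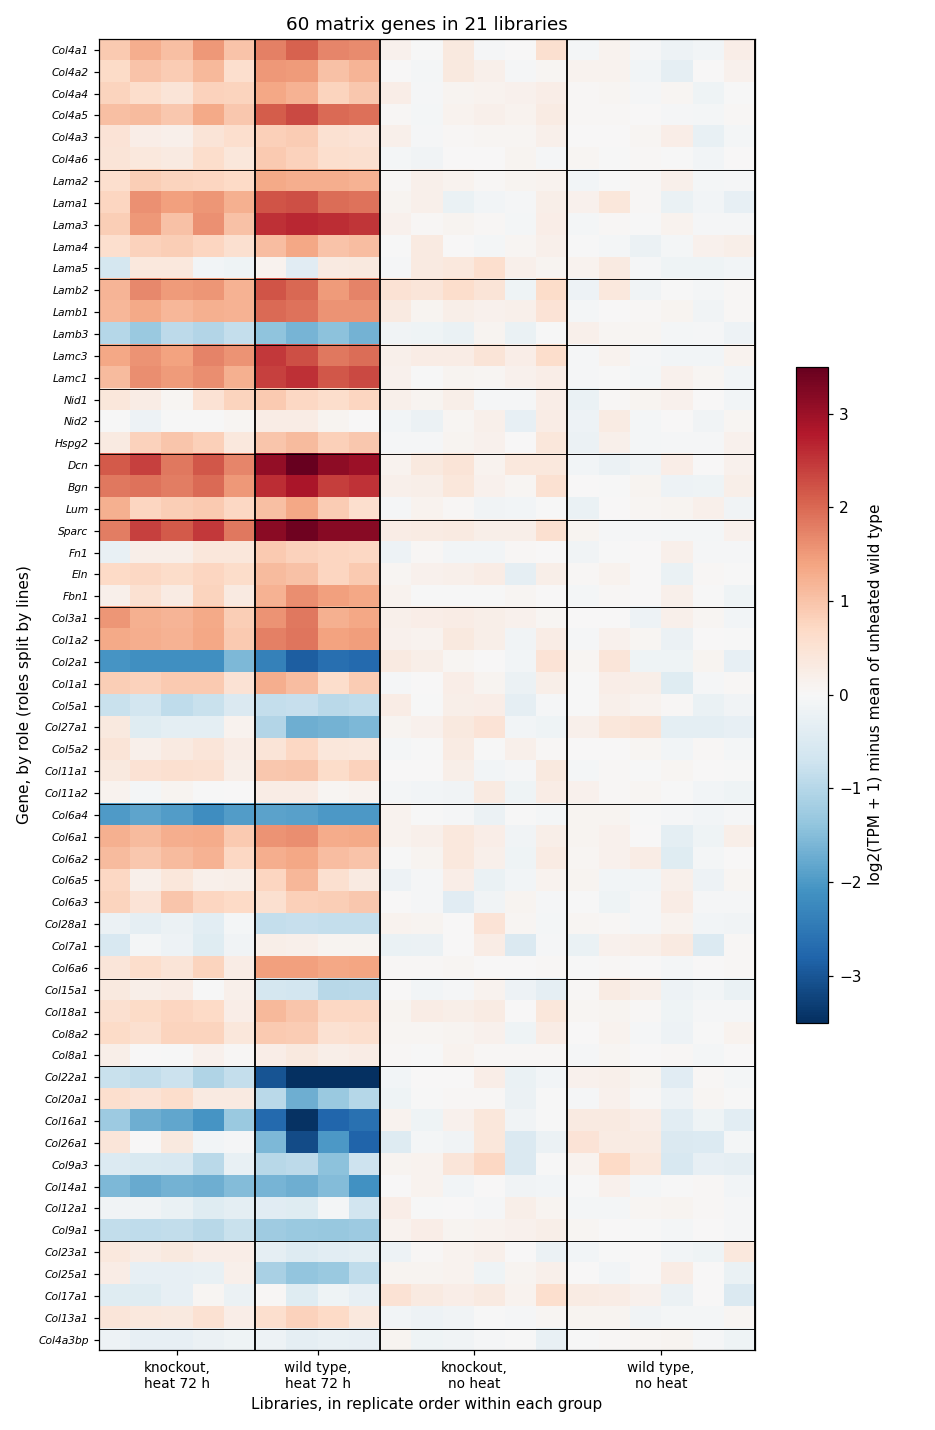
The values of 60 of the 61 genes (rows, by role) in each of the 21 libraries (columns), as log2(TPM + 1) minus the mean of unheated wild type; red is higher and blue lower. The heated wild-type columns are the most intense in both directions, the heated knockout columns are paler for most rows, and Col6a4 and Col14a1 are blue in both heated groups.

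After heat the genotypes were compared directly. Relative to heated wild type, 12 of the 61 genes were higher in the heated knockout (19.7%), against 33.2% of all genes tested, and 33 were lower (54.1%), against 47.2% of all genes. The median difference was -0.26, beside -0.18 over all genes. The difference between the heat effects was higher for 12 (19.7%), against 31.6% of all genes, and lower for 30 (49.2%), against 45.4% of all genes, with a median of -0.33 beside -0.20. These comparisons share the heated libraries. In both, the share of lower genes lay near that of all genes, and the share of higher genes lay below it. Among the lower genes were all 6 type IV chains, 4 of 5 laminin alpha and 2 of 3 beta chains, Lamc1 and Lamc3, and Fn1, Sparc, Fbn1 and Eln. The lower members had means such as 1079 ± 235 TPM for Sparc in the heated knockout, against 2276 ± 193 TPM in heated wild type (SD, n = 5 and 4), a log2 difference of -1.10 ± 0.12 (limma adjusted p = 3e-08). Lama3 averaged 2.56 ± 0.83 TPM in the heated knockout and 8 ± 0.301 TPM in heated wild type. Col22a1 was the farthest in the other direction on the log2 scale, at 115 ± 9.14 TPM in the heated knockout and 14.2 ± 7.35 TPM in heated wild type, 8.08-fold higher in the knockout. Col26a1 was 9.39-fold, Col9a1 4.86-fold, Col27a1 4.48-fold and Col20a1 3.33-fold higher. Without heated wild-type replicate 1 the ratio of Col26a1 was 15.3-fold. Beside this, all 16 Sertoli markers were lower and all 8 round spermatid markers higher in the heated knockout. Also lower were all 8 interstitial fibroblast, all 10 macrophage, 7 of 8 endothelial and 3 of 8 Leydig markers. The part of these cell types in the result was not tested here. Without heated knockout replicates 1 and 5, 12 genes were higher and 25 lower, and the share over all genes in that fit was not computed.

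Without heat, 0 of the 61 genes were called higher in the knockout, against 0.876% of all genes tested, and 0 lower, against 0.0699%. At an unadjusted p under 0.05 by limma there were 9 of the 61, beside 15.3% of all genes, a share near that background. They were Sparc, Lamc3, Lamb1, Lamb2, Col9a1, Bgn, Dcn, Col17a1 and Col18a1, all with higher knockout means. The median difference was 0.081, beside 0.024 over all genes. When only the 2 unheated groups entered the fit, 2 genes were called higher, against 4.96% of all genes, and 0 lower, against 0.611%. They were Sparc (0.31 ± 0.060, limma adjusted p = 0.0181) and Lamc3 (0.33 ± 0.080, adjusted p = 0.0356). Sparc averaged 300.3 ± 29.2 TPM in unheated knockout and 242 ± 15.9 TPM in unheated wild-type testes (SD, n = 6 each). Lamc3 averaged 7.83 ± 1.1 TPM in unheated knockout and 6.01 ± 0.514 TPM in unheated wild-type testes. For each of these genes all 6 knockout libraries lay above all 6 wild-type libraries, and a 2-sided exact permutation test gave p = 0.00216, the smallest these groups allow, among 48 such tests over 12 genes and 4 comparisons. Of the other 10 genes tested this way without heat, 3 had an unadjusted exact permutation p under 0.05, Col3a1 (0.0108), Dcn (0.0152) and Lamb2 (0.0303), each with the higher mean in the knockout. Adjusted over all 48 permutation tests, the p was 0.00945 for Sparc and Lamc3, 0.0162 for Col3a1, 0.0214 for Dcn and 0.0393 for Lamb2. The many small p values of the heat tests make this adjustment mild, and an adjustment over the unheated tests alone was not run. The Sertoli markers moved with these genes, summing to 2442 to 3269.7 TPM in unheated knockout and 1927 to 2249.5 TPM in unheated wild-type testes. Median log2 differences without heat were 0.33 for Sertoli, 0.38 for Leydig and 0.30 for macrophage markers. The part of these cell types was not tested.

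Ratios between matrix genes within a library do not depend on how the library was scaled, and 9 were compared in 4 comparisons each, by 2-sided exact permutation tests and Benjamini-Hochberg adjustment over the 36. Of these 11 had an adjusted p under 0.05, and all 11 were heat comparisons or the comparison of the heated genotypes. Lama1 to Lama2, alternative laminin alpha chains, averaged 0.758 (geometric mean, range 0.541 to 0.893) in heated knockout testes, against 0.414 (0.312 to 0.485) in unheated knockout testes (exact permutation p = 0.00216, adjusted 0.026). In wild type it averaged 0.914 (geometric mean, range 0.837 to 1.04) in heated wild-type testes, against 0.438 (0.297 to 0.653) in unheated wild-type testes (exact permutation p = 0.00952, adjusted 0.0312). Relative to Lama2, there was more Lama1 with heat in each genotype. Lama5 to Lama2 averaged 0.147 (geometric mean, range 0.0759 to 0.225) in heated knockout testes, against 0.332 (0.255 to 0.484) in unheated knockout testes (exact permutation p = 0.00216, adjusted 0.026), and averaged 0.114 (geometric mean, range 0.0632 to 0.157) in heated wild-type testes, against 0.277 (0.201 to 0.4) in unheated wild-type testes (exact permutation p = 0.00476, adjusted 0.0286). Lamc1 to Nid1, a laminin chain and its nidogen partner, averaged 0.596 (geometric mean, range 0.388 to 0.817) in heated knockout testes, against 0.243 (0.214 to 0.281) in unheated knockout testes (exact permutation p = 0.00216, adjusted 0.026), and averaged 0.945 (geometric mean, range 0.859 to 1.1) in heated wild-type testes, against 0.236 (0.207 to 0.267) in unheated wild-type testes (exact permutation p = 0.00476, adjusted 0.0286). Each of these 3 ratios moved the same way in both genotypes, with no overlap of heated and unheated libraries.

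Col1a1 to Col1a2, the chains of type I collagen, averaged 0.297 (geometric mean, range 0.286 to 0.324) in heated knockout testes, against 0.343 (0.319 to 0.365) in unheated knockout testes (exact permutation p = 0.00649, adjusted 0.0312). In wild type it averaged 0.249 (geometric mean, range 0.22 to 0.286) in heated wild-type testes, against 0.369 (0.289 to 0.422) in unheated wild-type testes (exact permutation p = 0.00476, adjusted 0.0286). Between the heated genotypes the adjusted p was 0.0312, and with any 1 library left out the log2 difference, 0.25 over all, lay between 0.19 and 0.32. The call was lost in all 9 such fits, with an adjusted p between 0.0584 and 0.0857 by the exact permutation test. Col4a1 to Col4a2 averaged 2.15 (geometric mean, range 1.79 to 2.51) in heated wild-type testes, against 1.58 (1.36 to 1.8) in unheated wild-type testes (exact permutation p = 0.00952, adjusted 0.0312), and in the knockout the adjusted p was 0.345. Dcn to Bgn averaged 2.49 (geometric mean, range 2.3 to 2.71) in heated wild-type testes, against 1.68 (1.44 to 2.25) in unheated wild-type testes (exact permutation p = 0.00952, adjusted 0.0312), and in the knockout the adjusted p was 0.229. With 1 library left out, the wild-type log2 differences lay between -0.64 and -0.51 for Col1a1 to Col1a2, 0.37 and 0.53 for Col4a1 to Col4a2, 0.53 and 0.66 for Dcn to Bgn and 0.95 and 1.18 for Lama1 to Lama2. Fewer libraries raise the smallest p these tests can give, and the calls were lost in 6, 8, 6 and 5 of 10 such fits, in 1 of 10 for Lama5 to Lama2 and for Lamc1 to Nid1, and in 4 of 11 for Col1a1 to Col1a2 in the knockout, whose difference lay between -0.24 and -0.19. The ratios of Col3a1 to Col1a1, of Lamb1 to Lamb2, and of the summed Col4a1 and Col4a2 to the summed Col1a1 and Col1a2 reached no adjusted p under 0.05. Levels of the last were 1.04 (geometric mean, range 0.826 to 1.22) in heated knockout testes, against 1.22 (1.11 to 1.3) in heated wild-type testes (exact permutation p = 0.0873, adjusted 0.224).

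**Figure D5:**
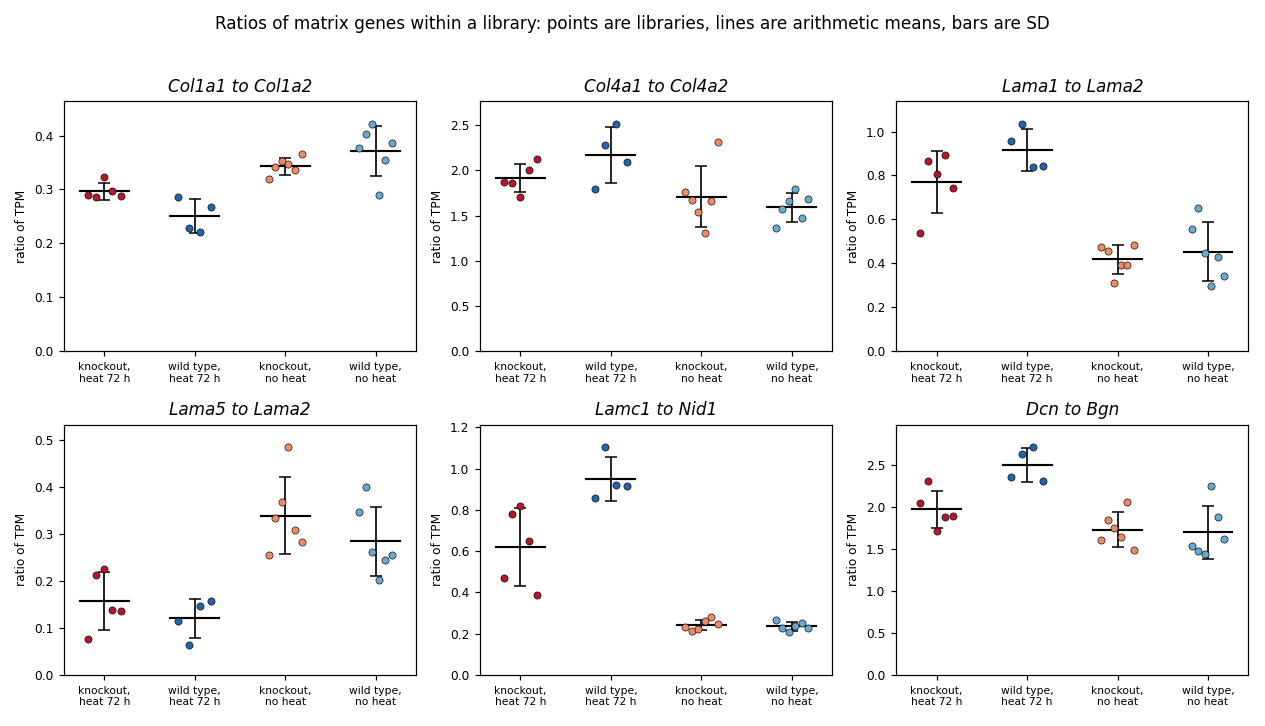
Ratio of TPM of 6 gene pairs in each library (axes start at 0), for the heated knockout, heated wild-type, unheated knockout and unheated wild-type testes; points are libraries, lines arithmetic means and bars SD. Lama1 to Lama2 and Lamc1 to Nid1 are higher, and Lama5 to Lama2 is lower, in each heated group than in the unheated testes of the same genotype.

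Other genes of the matrix were counted from 4 lists. Of all genes tested, 40.3% rose and 40.2% fell with heat in the knockout, and 46.4% rose and 44% fell in wild type. Of 17 genes for collagen modification and folding, 15 rose and 1 fell with heat in the knockout, and 16 rose and 0 fell in wild type. P4ha1, a prolyl hydroxylase subunit that stabilises the collagen helix, lay between 27.9 and 32.5 TPM in heated knockout and between 49.5 and 54.6 TPM in heated wild type, against means of 11.1 TPM in unheated knockout and 9 TPM in unheated wild type. It changed by 1.38 ± 0.059 in the knockout and 2.40 ± 0.063 in wild type. Colgalt1, which adds galactose to collagen, changed by 1.49 in the knockout, and Fkbp14, a collagen chaperone, by 3.24 in wild type. Of 11 procollagen processing and crosslinking genes, 8 rose and 2 fell in the knockout and 8 rose and 3 fell in wild type. Adamts2, which trims procollagen ends, changed by 0.86 in the knockout and 1.68 in wild type, and the crosslinking transglutaminase Tgm2 by 1.54 in the knockout and 2.84 in wild type. Of 19 matrix receptors, 14 rose and 3 fell in the knockout and 14 rose and 4 fell in wild type. The laminin-binding integrin genes Itgb1 and Itga6 changed by 1.56 and 1.89 in the knockout and by 3.00 and 3.73 in wild type. Of 49 other matrix glycoproteins and proteoglycans, 35 rose and 8 fell in the knockout and 37 rose and 9 fell in wild type. In that list Sparcl1, a relative of Sparc, changed by 1.32 in the knockout and 2.35 in wild type, and the syndecan Sdc2 by 1.12 in the knockout and 2.01 in wild type. The median changes of the 4 lists, in this order, were 0.98, 0.68, 0.75 and 0.73 in the knockout and 2.18, 1.04, 1.51 and 1.39 in wild type, beside medians over all genes of 0.012 and 0.057. After heat 16 of 17, 7 of 11, 14 of 19 and 34 of 49 were lower in the knockout than in wild type, beside 47.2% of all genes, and 0, 1, 3 and 7 were higher, beside 33.2%.

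The levels were also set against the Sertoli markers, by subtracting from each library's log2 values the mean of the 16 Sertoli genes. This moved the median change of all genes to -1.56 for heat in the knockout and -2.82 in wild type, and the median genotype difference after heat to 0.83, so only departures from those shifts tell the genes apart. With heat in the knockout, 1 of the 61 genes was higher than the Sertoli genes (0.727% of all genes were) and 58 were lower (95.2% of all genes). In wild type 2 were higher (1.02% of all genes) and 59 lower (96.6% of all genes). Sparc was the higher gene in the knockout (0.25 ± 0.064, limma adjusted p = 0.000979). Sparc (0.35 ± 0.069, adjusted p = 5.9e-05) and Dcn (0.31 ± 0.11, adjusted p = 0.00853) were the higher genes in wild type. Between the heated genotypes 52 were higher in the knockout relative to the Sertoli genes (84.3% of all genes) and 1 was lower (2.01% of all genes). The lower gene was Lama3 (-0.37 ± 0.082, adjusted p = 0.000335). On this scale Sparc differed between the heated genotypes by -0.097 ± 0.071 (adjusted p = 0.206), Dcn by -0.13 ± 0.11 (adjusted p = 0.266) and Lamc1 by 0.061 ± 0.081 (adjusted p = 0.48). Shares of the 61 genes were thus near those of all genes in the lower calls with heat and in the higher calls between genotypes. These counts depend on the list used for centring, and with Leydig markers 14 of the 61 genes were higher (36.3% of all genes) and 13 lower (25.9%) in the heated knockout than in heated wild type. With peritubular myoid markers 19 were higher (45.1% of all genes) and 14 lower (26.4%).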

How the data were processed

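Per the labels' protocols, Trizol RNA went into TruSeq stranded mRNA libraries for Illumina HiSeq sequencing. The submitters' processing notes name STAR and mm10. The deposited values are TPM computed by the authors, so read depth per library is unknown, no counting interval can be given, and precision was judged from replicates. The annotation, the quantifier and the counting strand were not given in the sources used here.

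Values were analysed as log2(TPM + 1) for 21450 genes (average of 0.5 TPM or more), with limma 3.58.1 in R 4.3.3 (group means, empirical Bayes with trend, Benjamini-Hochberg adjustment) and exact permutation in Python 3.11.15. Replicates measure the spread between these testes. The limma step was tested on simulated data. Fold values are ratios of group mean TPM. Coordinates come from GENCODE M21 on mm10 and promoters from RefSeq. Of the 61 genes 1 enters the counts and sums but is not reported here. The genes and lists were chosen with earlier results of these data known. Named genes were, by rule, the 3 of highest mean in each role, the 3 with the largest moderated t in each comparison, those called with heat against the majority, all called where 10 or fewer were, Col4a3bp, and the 2 of largest t per matrix list and heat comparison; others of the 61 were named after their values were seen, to account for each role. Alternatives were pseudocounts, filters, scalings, fits of fewer groups, a replicate block and libraries left out.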

Additional observations from a re-analysis of the deposited data

Results flagged for a closer look

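Single libraries stood apart from the rest of their group in 9 of 180 groups of 4 to 6 libraries tested over 45 named genes, and chance alone gives about 1 in 20. In the heated knockout, replicate 5 had the highest Col2a1 level (2.55 TPM, the others 1.41 to 1.54 TPM). In heated wild type, replicate 1 was highest for Col27a1 (1.51 TPM, the others 0.56 to 0.7 TPM) and replicate 2 for Sparc (2565 TPM, the others 2160.1 to 2189.8 TPM). In the unheated knockout, replicate 4 was low for Col25a1 (2.25 TPM) and high for Col28a1 (2.7 TPM), replicate 5 was low for Lamb2 (10.2 TPM) and replicate 6 high for Sparc (357 TPM). In unheated wild type, replicate 6 was high for Col23a1 (3.38 TPM) and replicate 2 for Lamb2 (15.2 TPM).

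The heat effect differed between knockout and wild type for 34 of the 45 named genes, by the limma test of the difference at an adjusted p under 0.05. Over all genes tested, the difference was called positive for 31.6% and negative for 45.4%. The 45 were chosen partly by these same tests, so the count does not set the matrix genes apart. The difference, knockout effect minus wild-type effect in log2(TPM + 1), was positive for 12: Col22a1 3.05, Col26a1 2.66, Col20a1 1.76, Col27a1 1.23, Col16a1 1.2, Col15a1 1.06, Col25a1 1.02, Col23a1 0.66, Lamb3 0.62, Col28a1 0.48, Col2a1 0.48 and Col9a1 0.26. It was negative for 22: Lama3 -1.45, Dcn -1.43, Sparc -1.41, Col4a5 -1.12, Lamc1 -1.05, Bgn -1.04, Lamc3 -0.93, Lamb2 -0.85, Col4a1 -0.80, Lama1 -0.79, Lamb1 -0.77, Lama2 -0.64, Fn1 -0.57, Col1a2 -0.57, Col4a2 -0.53, Col4a4 -0.51, Col18a1 -0.51, Nid1 -0.45, Col6a1 -0.45, Col3a1 -0.44, Hspg2 -0.40 and Eln -0.35. Under quantile normalization the difference of Col9a1 was -0.015, of the opposite sign. The call was lost in 10 of 31 alternatives for Col2a1, in 9 of 30 for Hspg2, in 2 for Col3a1, Col6a1 and Eln each, and in 1 for Col28a1, Col4a2 and Nid1 each. Sertoli, interstitial fibroblast and macrophage markers were lower and round spermatid markers higher in the heated knockout than in heated wild type. The part of these cell types in these differences was not tested.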

How the results depend on the processing

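TPM keeps no depth, so counting error at low levels is unknown. A filter of 5 TPM removed genes from the test: 20 rose and 6 fell with heat in the knockout, 18 and 9 in wild type, 6 were higher and 18 lower in the heated knockout than in heated wild type, and the heat difference was higher for 6 and lower for 18. With only the 2 unheated groups fitted, 2 genes were higher in the knockout. Against Leydig genes in place of Sertoli genes, 2 rose in the knockout and 5 in wild type, and 14 were higher and 13 lower between heated genotypes. Against peritubular myoid genes, 13 rose and 35 fell in the knockout, and 15 rose and 39 fell in wild type. Between heated genotypes 19 were higher and 14 lower on that scale. Shares over all genes were computed for the main fits, the unheated 2-group fit and the Leydig and peritubular centring between heated genotypes. They were not computed for the other counts here, which show only how the calls depend on the processing. With log2(TPM + 0.1), 2 were lower between heated genotypes relative to Sertoli genes. Leaving out 1 library gave 1 to 2 genes higher with heat in the knockout relative to Sertoli genes (2 without heated knockout replicate 5 or unheated knockout replicate 3) and 25 to 33 genes lower between heated genotypes. Other counts stayed within 1.5 times under the alternatives run. Median-of-ratios scaling shifted the median gene by -0.15 for heat in wild type. Under quantile normalization the change of Col4a3bp with heat in the knockout was 0.092 and the heat difference of Col9a1 was -0.015, both of the opposite sign; the cause was not tested. Of 155 gene results, 21 lost the call in at least 1 alternative, among them Col3a1 (10 of 20), Col6a1 (9 of 20) and Hspg2 (7 of 19) between heated genotypes and Fn1 for heat in the knockout (9 of 22). Whether replicate numbers pair the samples is not known. Deviations of same-numbered libraries correlated between -0.23 and 0.31, over 0.1 in 4 of 28 pairs. Differently numbered libraries were not compared, so this check cannot decide it. With the replicate block 39 rose and 13 fell in the knockout, 38 rose and 18 fell in wild type, 12 were higher and 29 lower between heated genotypes, and the difference was higher for 11 and lower for 30.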
